A study of Saccharomyces cerevisiae with 4 samples.

Results

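Lower glycolysis in budding yeast was examined at 8 genes, given by symbol and matched to the RefSeq annotation of the R64 build: TDH1, TDH2 and TDH3, PGK1, GPM1, ENO1 and ENO2, and PYK2. They are 8 of 6002 nuclear protein-coding genes with a known strand. The working name of the set runs from TDH to ENO, but PYK2 belongs to the step after enolase, and the main pyruvate kinase gene, CDC19, is not a member. These enzymes carry glyceraldehyde-3-phosphate to pyruvate. Glyceraldehyde-3-phosphate dehydrogenase (the TDH genes) makes 1,3-bisphosphoglycerate and NADH, phosphoglycerate kinase (PGK1) takes ATP from it, phosphoglycerate mutase (GPM1) moves the phosphate, enolase (the ENO genes) removes water, and pyruvate kinase (CDC19, PYK2) forms pyruvate and ATP. In cells growing on glucose, most of these genes are among the most strongly transcribed of the genome, while PYK2 is repressed by glucose and TDH1 is better known from stationary phase.

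The question was where Acs2, the acetyl-CoA synthetase found in nucleus and cytosol, was recovered on chromatin. The 4 libraries were an input, with no antibody, and an immunoprecipitate with the FLAG M2 antibody, each from an untagged strain and from a strain with genotype Acs2-FLAG. Both strains grew in YPD medium with 2% glucose at 28 °C to an OD600 of 0.7 to 1.0 and were crosslinked with 1% formaldehyde. There was 1 library in each of the 4 groups, so there is no replicate error and the strains could not be compared by a test. The sources used here do not give the strain background or the position of the tag.

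Each immunoprecipitate has 1 list of peaks, 912 in the Acs2-FLAG list and 34 in the untagged list. A peak has an interval, a summit, and the authors' fold enrichment, which divides the fragments at the summit by those of the local background. The fragment counts behind the folds were recovered from the deposited values, and the 95% intervals given with folds are exact Poisson intervals of those counts. They cover counting error only, not the spread between cultures or precipitations. The lowest recovered background was 291.1 fragments per base in the Acs2-FLAG library and 198.4 in the untagged library. At these backgrounds a fold of 1.16 and of 1.26, respectively, is needed to reach the lowest −log10 p found in that list, 2.54 and 3.85. By its background the untagged library was the shallower, and its lowest −log10 p was also the higher. The limits of 1.16 and 1.26 therefore differ by both, and the untagged list could miss signal that the other would show. A gene was counted as having a peak when a peak shared at least 1 bp with the region from 500 bp upstream of its annotated start to its annotated end.

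An Acs2-FLAG peak met 7 of the 8 lower glycolysis genes, and PYK2 alone had none. Over all protein-coding genes the same rule found a peak at 20.6% (1238 of 6002). An untagged peak met 4 of the 8, TDH3, PGK1, GPM1 and ENO2, against 0.533% of all protein-coding genes (32 of 6002). At those 4 genes the peaks of both lists overlapped, which was so at 0.5% of protein-coding genes (30 of 6002). The share of lower glycolysis genes with a peak was thus above that of all genes in both lists, in the untagged strain as well as in the tagged one. TDH1, TDH2 and ENO1 had a peak in the Acs2-FLAG list and none in the untagged list.

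Folds in the Acs2-FLAG list ran from 1.97 at TDH1 to 5.97 at TDH3, with a median of 3.73 over the 7 members with a peak. The median of all 912 peaks was 1.61. Untagged folds at the 4 members ran from 1.38 to 1.91. At each of the 4, the interval of the Acs2-FLAG fold lay above that of the untagged fold. Each member had at most 1 peak in a list, every member summit lay inside the annotated gene, and no member peak in either list touched a tRNA gene or another RNA gene. From the highest fold down, the order was TDH3, ENO2, TDH2, PGK1, GPM1, ENO1 and TDH1. The intervals of the 4 genes from ENO2 to GPM1 overlapped one another, while TDH3 lay above them and ENO1 and TDH1 below. Overlap of single intervals does not show equal folds. Ratio intervals among these 4 genes were not computed, so their order is not read as a result.

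**Figure D1:**
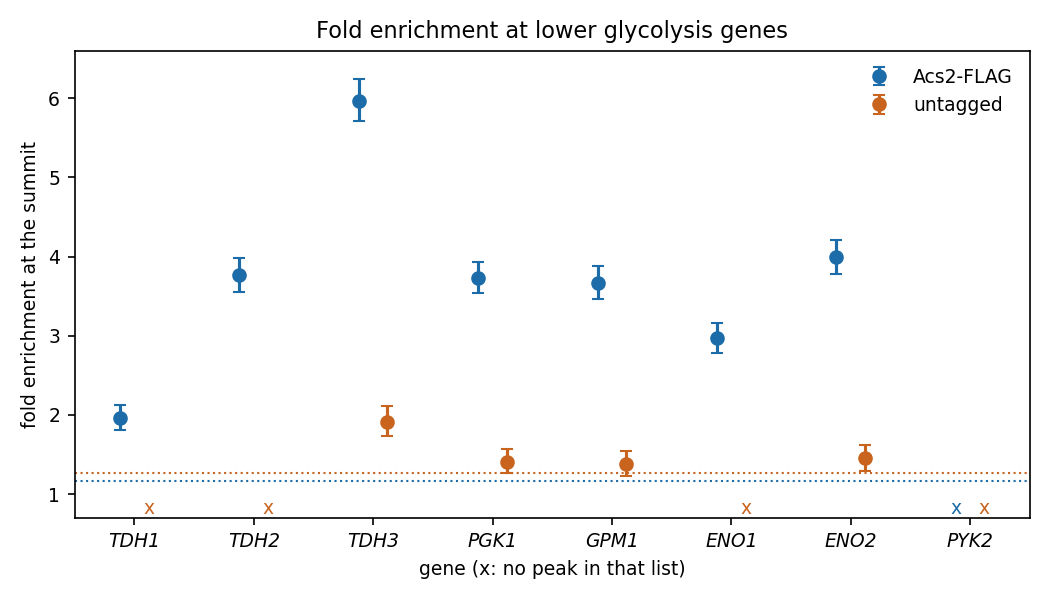
Fold enrichment at the summit (vertical axis) for the 8 lower glycolysis genes, with points for the Acs2-FLAG (blue) and untagged (orange) lists and bars for the 95% Poisson counting interval; dotted lines mark the folds of 1.16 and 1.26 that reach the lowest −log10 p of each list, and x marks a gene with no peak. TDH3 stands highest in both lists, and PYK2 has no peak in either.

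Among the TDH genes, which encode 3 isozymes of glyceraldehyde-3-phosphate dehydrogenase, the Acs2-FLAG fold fell in the order TDH3, TDH2, TDH1. TDH3 (YGR192C, chromosome VII, 882812 to 883810, minus strand) encodes the major isozyme of growing cells. Its peak held 1944 fragments at the summit over a background of 324.9, a fold of 5.97 (5.71 to 6.24), which ranked 1 of 912 in the list. In the untagged library 400 fragments stood over a background of 208.7 at this gene, a fold of 1.91 (1.73 to 2.11) and rank 6 of 34. TDH3 was therefore the strongest member in both lists.

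TDH2 (YJR009C, chromosome X, 453683 to 454681, minus strand) encodes a close relative of the TDH3 enzyme. Its Acs2-FLAG summit held 1245 fragments over 330.2, a fold of 3.76 (3.56 to 3.98), rank 43 of 912. No untagged peak met the gene. TDH1 (YJL052W, chromosome X, 338271 to 339269, plus strand) had the weakest peak of the 7 members, with 598 fragments over 303.6, a fold of 1.97 (1.81 to 2.13) and rank 356 of 912. It too had no untagged peak.

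Within the Acs2-FLAG library, the fold at TDH3 was 1.59 times that at TDH2 (95% counting interval of the ratio 1.48 to 1.71, backgrounds held fixed). TDH2 was 1.91 times TDH1 (1.74 to 2.11), and TDH3 was 3.03 times TDH1 (2.77 to 3.34). All 3 intervals lay above 1, but they cover counting error only and not the placement of reads shared between the genes. Whether the order would hold in another culture cannot be told from 1 library. Local backgrounds differed much less than the folds, by a factor of 0.984 between TDH3 and TDH2 and of 1.09 between TDH2 and TDH1, so the order is that of the immunoprecipitated fragments. The coding sequences of the TDH genes are near-identical in parts, as are those of ENO1 and ENO2. The sources used here do not say how reads matching several copies were placed. Values at each TDH and ENO copy are therefore uncertain, and the part of this in the paralog differences was not tested.

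PGK1 (YCR012W, chromosome III, 137746 to 138996, plus strand) encodes the only phosphoglycerate kinase of yeast. In the Acs2-FLAG library its summit held 1394 fragments over 372.6, the highest local background of the members, for a fold of 3.73 (3.54 to 3.94) and rank 49 of 912. In the untagged library it held 326 over 230.9, a fold of 1.41 (1.26 to 1.57) and rank 17 of 34. The background at PGK1 was the highest among the members in both libraries, 1.28 and 1.16 times the lowest of its library.

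GPM1 (YKL152C, chromosome XI, 163642 to 164385, minus strand) encodes the phosphoglycerate mutase of glycolysis. Its values were 1207 fragments over 328.0 in the Acs2-FLAG library, a fold of 3.67 (3.47 to 3.88) and rank 52, and 295 over 214.0 in the untagged library, a fold of 1.38 (1.22 to 1.54) and rank 23. GPM2 and GPM3, homologues of GPM1 that are thought to have little or no mutase activity, had no peak in either list.

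ENO2 (YHR174W, chromosome VIII, 451327 to 452640, plus strand) encodes the enolase that is induced by glucose. Its Acs2-FLAG summit held 1331 fragments over 332.8, a fold of 3.99 (3.78 to 4.21) and rank 27, the second highest of the members. The untagged summit held 321 over 220.8, a fold of 1.45 (1.30 to 1.62) and rank 13 of 34. ENO1 (YGR254W, chromosome VII, 1000927 to 1002240, plus strand), whose transcription is lower on glucose, had 930 fragments over 312.7, a fold of 2.97 (2.78 to 3.17), rank 204, and no untagged peak. The ENO2 fold was 1.34 times the ENO1 fold (1.24 to 1.46), and this interval lay below those of all 3 TDH ratios. The enolase-related genes ERR1, ERR2 and ERR3, which lie near chromosome ends, had no peak in either list.

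PYK2 (YOR347C, chromosome XV, 984942 to 986462, minus strand) had no peak in either list. CDC19 (YAL038W, chromosome I, 71786 to 73288, plus strand), which encodes the pyruvate kinase active on glucose, had a peak in both, with folds of 4.02 (Acs2-FLAG) and 1.39 (untagged). At the lowest background, a fold of about 1.16 in the Acs2-FLAG library or 1.26 in the untagged library is needed to reach the lists. A higher background lowers the fold needed, and the Acs2-FLAG list holds a peak with a fold of 1.15. The background at PYK2 was not recovered, so the limit at this gene is not known. No peak therefore means not detected at this depth and at the lowest −log10 p of each list.

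The peaks covered entire genes. All 7 Acs2-FLAG peaks spanned the annotated gene from start to end and ran on past both ends, by 131 to 1102 bp on the upstream side and by 332 to 550 bp beyond the annotated end. Their widths were 1462 bp at TDH1, 1687 bp at TDH2, 1853 bp at TDH3, 1880 bp at ENO1, 1936 bp at PGK1, 1940 bp at ENO2 and 2247 bp at GPM1. The median was 1880 bp, against 562 bp for the whole list, and 5 of the 7 were among the widest 10% of the list. Width followed the order of the folds among the TDH genes, and ENO2 was only 60 bp wider than ENO1.

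Such widths were common at other peaks in protein-coding genes that were at least as strong as the weakest member peak, at TDH1. The list held 45 other peaks with a fold of at least 1.97, a summit in a protein-coding gene and no RNA gene in the interval. Most were weaker than most members, with a median fold of 2.28 against 3.73. Their median width was 1912 bp (quartiles 1538 and 2491), and at all 45 genes the peak likewise covered the whole gene. The genes included ADH1, FBA1, ACT1, TEF1, TEF2 and PMA1. Covering the whole gene thus does not set the members apart. The peak at GPM1, the shortest gene of the members with 744 bp, was the widest and began 1102 bp upstream of the start, against 131 to 304 bp at the other 6. It reached into the neighbouring gene NNR2, and the peaks of 4 other members likewise met a neighbour: MHO1 at TDH2, POL4 at PGK1, COQ6 at ENO1, and YHR173C and CTR2 at ENO2.

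**Figure D2:**
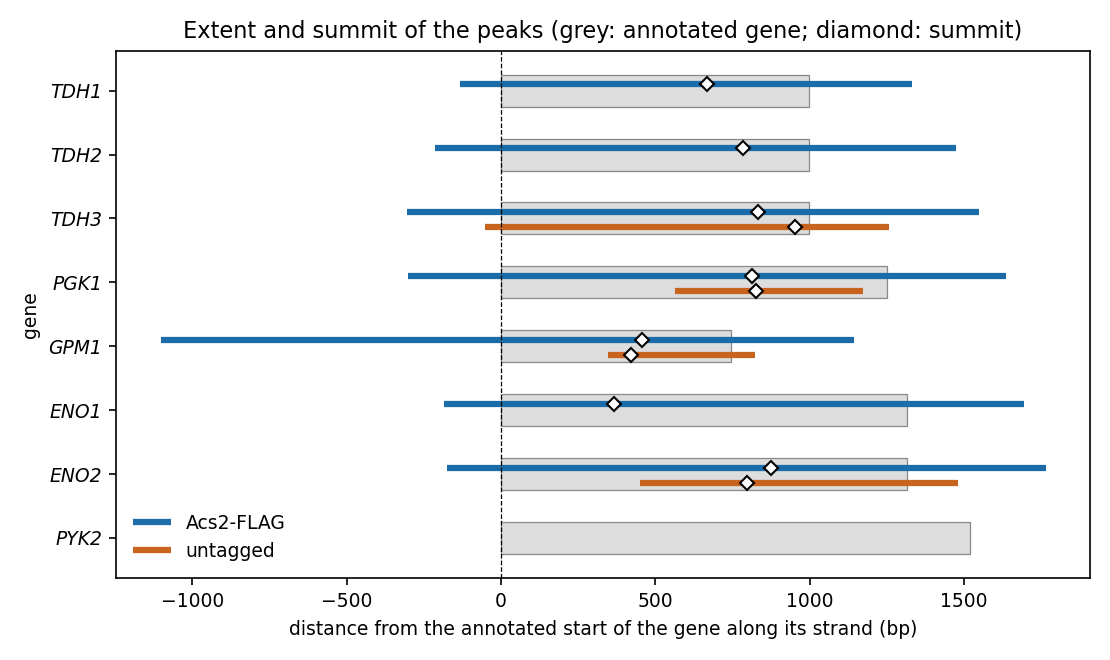
Extent of each peak (coloured lines) and its summit (diamonds) along the gene, with distance from the annotated start in bp on the horizontal axis and the annotated gene as a grey bar. Each Acs2-FLAG peak runs past both ends of its gene, and the 4 untagged peaks lie inside the Acs2-FLAG peaks.

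**Figure D3:**
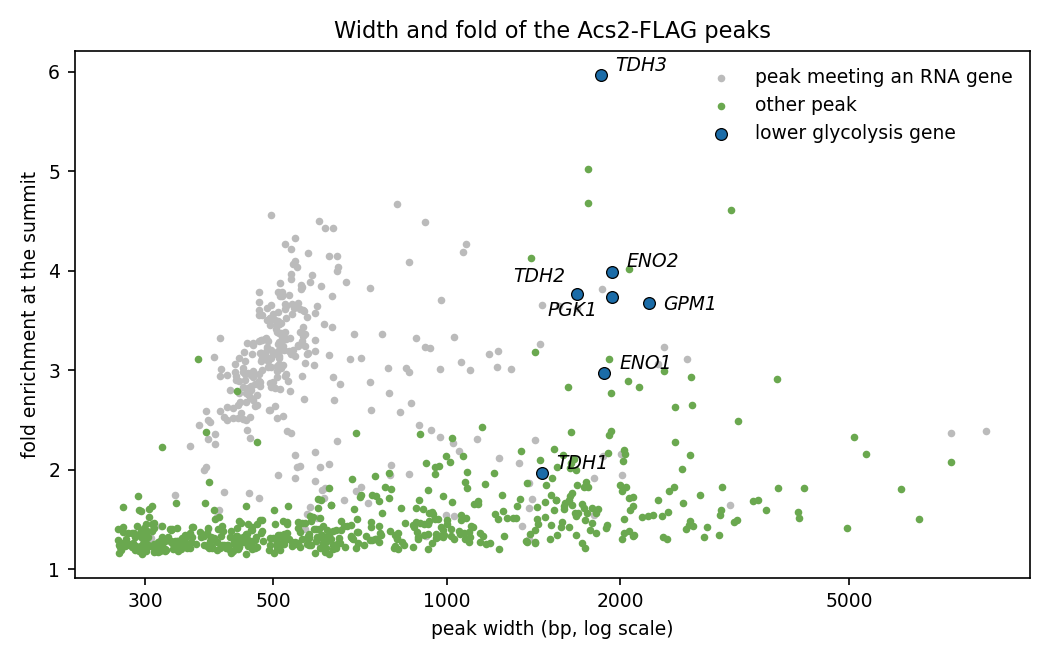
Width in bp (horizontal, log scale) and fold enrichment at the summit (vertical) of all 912 Acs2-FLAG peaks. The 7 peaks at lower glycolysis genes lie to the right of the dense group of narrow peaks at RNA genes and share their width with other strong peaks in protein-coding genes.

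Untagged peaks were narrower, 1307 bp at TDH3, 1029 bp at ENO2, 607 bp at PGK1 and 478 bp at GPM1. All 4 lay entirely within the Acs2-FLAG peak of the same gene and made up 70.5%, 53.0%, 31.4% and 21.3% of its width. The untagged peaks at FBA1, CDC19, PDC1 and ADH1, outside the set, likewise lay within the Acs2-FLAG peak. There they made up 56.8%, 57.7%, 48.3% and 59.0% of its width, so this does not set the members apart. At TDH3 the untagged peak also covered the whole gene, but at PGK1, GPM1 and ENO2 it began 565, 346 and 450 bp inside the gene and covered 48.5%, 53.5% and 65.8% of it. The region upstream of the start was part of the untagged peak only at TDH3, and of the Acs2-FLAG peak at all 7 members. The untagged folds were also the lower at these genes, and the part of that in the widths was not tested.

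Summits mostly lay past the midpoint of the gene. In the Acs2-FLAG list the summit was 83.3% of the way along TDH3, 78.4% along TDH2, 66.7% along TDH1, 66.6% along ENO2, 65.0% along PGK1 and 61.3% along GPM1. ENO1 alone had it in the first part, 367 bp after the start of the gene or 27.9% of its length. Past the midpoint were 6 of 7 members, against 60.8% of the protein-coding genes that held an Acs2-FLAG summit (273 of 449, peaks at RNA genes left out), whose median position was 59.5%. The member share is 85.7%, but with 7 genes it was not distinguished from the background and is not read as a result about lower glycolysis. The enolase paralogs, of the same length of 1314 bp, differed most, with summits 367 bp and 875 bp from the start.

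The summits of both lists lay within 121 bp of each other at the 4 members with peaks in both. The distance between the summits was 14 bp at PGK1, 35 bp at GPM1, 79 bp at ENO2 and 121 bp at TDH3. Outside the set it was 43 bp at ADH1 and 74 bp at CDC19, but 297 bp at FBA1 and 498 bp at PDC1. At TDH3 the untagged summit was the nearer to the end of the gene, 45 bp before it against 166 bp in the Acs2-FLAG list. All 4 untagged summits lay past the midpoint, at 56.6% to 95.4% of the gene.

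**Figure D4:**
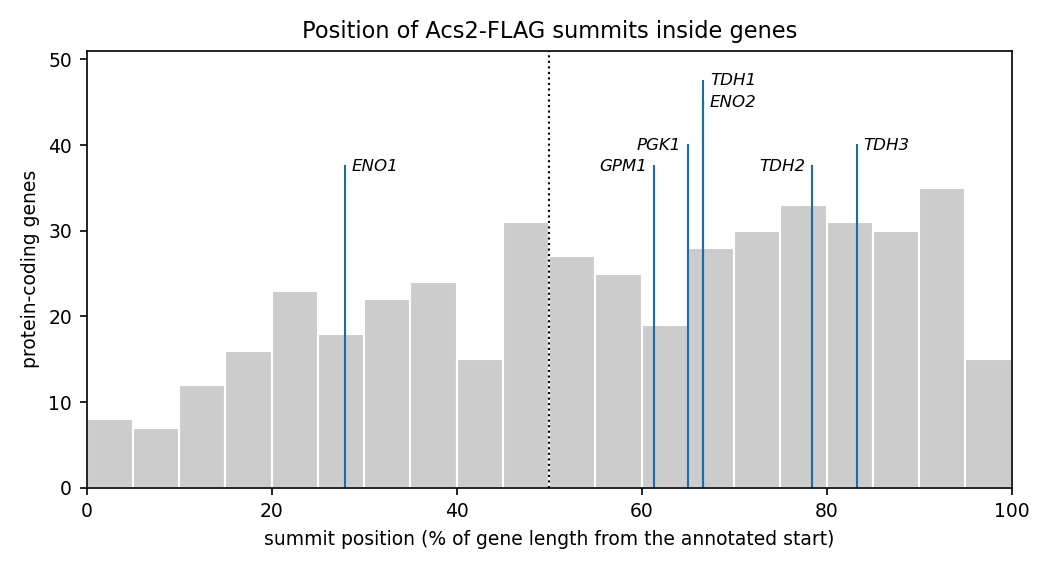
Position of the Acs2-FLAG summit as a percentage of gene length (horizontal) for 449 protein-coding genes (grey bars, number of genes on the vertical axis), with the 7 members as blue lines and the midpoint dotted. All members but ENO1 lie past the midpoint, as do 60.8% of the genes.

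At the 4 members with peaks in both lists, the Acs2-FLAG fold was a similar multiple of the untagged fold. The ratio was 3.12 (95% counting interval 2.81 to 3.49) at TDH3, 2.75 (2.44 to 3.12) at ENO2, 2.67 (2.35 to 3.05) at GPM1 and 2.65 (2.35 to 3.004) at PGK1, with overlapping intervals. The 15 other overlaps outside the ribosomal DNA had a median ratio of 2.06, from 1.60 to 3.10. They came from 14 Acs2-FLAG peaks, since 1 of these met 2 untagged peaks and enters the median with both ratios. Among them were 2.89 at CDC19, 2.91 at FBA1 (aldolase), 3.10 at ADH1 (alcohol dehydrogenase) and 2.66 at CCW12, a gene outside glycolysis and fermentation. Each of the 4 members thus lay above the median of the others. CDC19, FBA1, ADH1 and CCW12 were the only others with an Acs2-FLAG fold of at least 3.67, that of GPM1. All the rest were weaker and had ratios of at most 2.26. Lying above the median therefore does not set the members apart from other peaks of their strength. The ratios compare libraries that were each set against their own input, not strains. Taken as the part of the fold above 1, the Acs2-FLAG value was 5.45 times the untagged one at TDH3, 6.63 at ENO2, 6.67 at PGK1 and 7.09 at GPM1, which puts TDH3 last in place of first. On this scale the 15 other overlaps had a median of 4.91, from 3.40 to 7.76, and the 4 members again lay above that median. CDC19, at 7.76, was above all 4 members, and ADH1 at 6.52 and FBA1 at 6.08 were among those above TDH3.

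**Figure D5:**
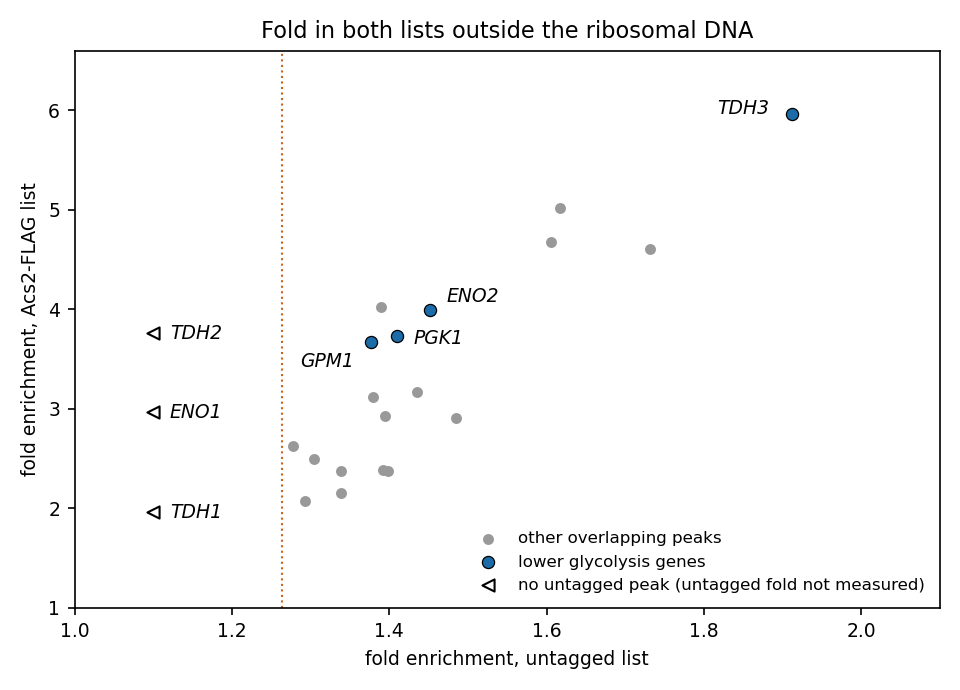
Fold in the untagged list (horizontal) and in the Acs2-FLAG list (vertical) at the 19 overlaps outside the ribosomal DNA, with the 4 members in blue and the others in grey. TDH2, ENO1 and TDH1 have no untagged peak and are drawn at the left at their Acs2-FLAG fold only, at a fixed horizontal place that is not a measurement; the dotted line marks the untagged fold of 1.26.

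The members without an untagged peak were not all weak in the Acs2-FLAG list. TDH2, at 3.76, stood level with PGK1 at 3.73 and GPM1 at 3.67, both of which had untagged peaks. Set against the untagged fold of 1.26 that reaches the lowest −log10 p at the lowest background, the ratio was 2.98 at TDH2, 2.35 at ENO1 and 1.56 at TDH1. The untagged folds at these 3 genes were not measured. The part of the lower depth of that library, and of the higher lowest −log10 p of its list, in the missing peaks was not tested.

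Peaks as strong as these, away from RNA genes, were few. The limit used was the GPM1 fold of 3.67, the lowest Acs2-FLAG fold among the 4 members with peaks in both lists. It was chosen after the values were seen. At or above it the Acs2-FLAG list had 52 peaks, and 42 of them met an RNA gene. The other 10 had their summits in TDH3, ADH1, FBA1, CCW12, TPI1, CDC19, ENO2, TDH2, PGK1 and GPM1, so that 5 of the 10 were lower glycolysis genes. Of these 10 peaks, 8 overlapped an untagged peak. The exceptions were TDH2 and TPI1, the gene of triose phosphate isomerase, with a fold of 4.13. By the choice of the limit, TDH3, ENO2, PGK1 and GPM1 had to reach it and had to overlap an untagged peak. Neither count is therefore read as a result about lower glycolysis. The whole list of 912 peaks had 19 overlaps with untagged peaks outside the ribosomal DNA.

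In the rest of the pathway, all 8 genes of upper glycolysis (HXK1, HXK2, GLK1, PGI1, PFK1, PFK2, FBA1 and TPI1) had an Acs2-FLAG peak. An untagged peak met 1 of the 8, FBA1. The median Acs2-FLAG fold of the 8 was 1.98, below the 3.73 of the lower glycolysis members with a peak, but the ranges overlapped. Upper glycolysis folds ran from 1.49 to 4.68, and those of the members from 1.97 to 5.97. FBA1 at 4.68 and TPI1 at 4.13 lay above every member but TDH3. Of 8 genes of fermentation, ADH1, PDC1 and ADH3 had an Acs2-FLAG peak, with folds of 5.02, 2.93 and 1.27, while PDC5, PDC6, ADH2, ADH4 and ADH5 had none. Over the 22 other genes of glycolysis and fermentation examined, 12 had an Acs2-FLAG peak and 4 an untagged one. Among all protein-coding genes the same rule found an Acs2-FLAG peak at 20.6% and an untagged one at 0.533%. These medians and counts were not tested against each other.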

How the data were processed

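Per the file headers, each of the 2 deposited lists pairs a precipitated library with the input of the same strain, with no pooling. They leave unsaid which library was the control, and the input was assumed to be. The submitters' processing notes name Trimmomatic, BWA, Picard, MACS2 and build R64, without settings. Column 7 was read as the authors' fold enrichment (a ratio), columns 8 and 9 as the deposited −log10 p and −log10 q, column 5 as the deposited score, which was not used, and column 10 as the summit's distance from the peak start. RefSeq accessions gave the chromosomes, and the W or C of the systematic name gave the strand.

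The fragment count n and background b were solved from fold = (n + 1)/(b + 1) and the Poisson tail p. The count came out whole within 0.05 at 907 of 912 Acs2-FLAG and 30 of 34 untagged peaks, members included. Intervals are exact, at 95% confidence. Ratio intervals condition on the sum of both counts and hold backgrounds fixed. The solving step and the ratio interval were tested on simulated data, and gene overlaps were checked with bedtools 2.31.1. Members, lists and tests were chosen with earlier results of these data known. All members are named, with other genes where a comparison needs them. Alternatives covered the gene region, the overlap rule, peak thresholds, the scale of the fold and the peak centre. Planned promoter motif searches were not run. Versions were matplotlib 3.10.9, scipy 1.17.1, pandas 2.3.3 and numpy 2.4.6 under Python 3.11.15.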

Additional observations from a re-analysis of the deposited data

How the results depend on the processing

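The 7 members with an Acs2-FLAG peak were the same 7 under all 8 alternatives of region, overlap and threshold. The share of all protein-coding genes with such a peak ran from 10.7% to 25.5% over these alternatives. The count of members with an untagged peak fell from 4 to 1, TDH3, when the upstream part of the region alone was used, and to 3 without GPM1 when peaks needed a −log10 q of at least 5 or a fold in the upper part of the list. In these settings an untagged peak was found at 0.217%, 0.383% and 0.283% of all protein-coding genes, in the same order. Overlapping peaks were at 3 members with summits within 100 bp (without TDH3) or that −log10 q in both lists (without GPM1). Among all protein-coding genes these rules found 0.283% and 0.35%, in that order. The median ratio of the Acs2-FLAG to the untagged fold, 2.71, became 6.65 with the fold minus 1 and 1.21 with each fold divided by its list's median at the 19 overlaps. Paralog ratios kept their direction. With the fold minus 1 they were 1.80 for TDH3 to TDH2, 2.86 for TDH2 to TDH1, 5.14 for TDH3 to TDH1 and 1.52 for ENO2 to ENO1, and with the −log10 q 2.52, 6.65, 16.8 and 2.14 in the same order. Fragment counts at the summit gave ratios within the counting intervals. With the peak centre in place of the summit, 6 of 7 members again lay past the midpoint, but ENO1 joined them and GPM1, at 2.82% of its length, left. With 1 library a group, no replicate could be left out and no paired analysis was made, and the shallower untagged library limits what its missing peaks can show.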
